A study of Mus musculus with 7 samples.

Results

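Nebl, which encodes nebulette, a nebulin relative that binds actin along the thin filament next to the Z-disc, fell to 22.5% of its control level in left atria of adult mice that overexpressed FOG2. Lmod3, which encodes leiomodin 3, an actin nucleator that lengthens filaments at their pointed ends, fell to 49.0%. These are among 10 genes of the cardiac thin filament that were followed here: the troponin genes Tnnt2, Tnni3, Tnni1 and Tnnc1, the tropomyosin genes Tpm1 and Tpm2, and the genes Nebl, Lmod2, Lmod3 and Tmod1, whose proteins act on filament ends or along filaments. They were named for what their proteins do, with earlier results of these data known, so their counts beside those of all genes are descriptions. They were taken from a table of read counts for 24421 genes, in which all 10 were present.

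The series is RNA sequencing of left atria from adult CD1 mice, with 4 libraries from the genotype labelled FOG2 Overexpression (OE) and 3 from the genotype labelled WT. FOG2 is encoded by Zfpm2 and binds GATA transcription factors through its zinc fingers, changing their activity at target genes. The hearts came from animals that the protocol calls DTG and NTG, kept without doxycycline for 1 week, so both groups shared the CD1 strain, the adult age, the tissue and the doxycycline withdrawal. The sources used here do not give the promoter that drives the transgene or the heart cells in which it is active. Nothing in the labels says that each library comes from its own mouse, so p-values measure the spread between libraries, part of which may be technical.

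Thin filaments are polymers of actin with tropomyosin lying along them and 1 troponin complex on each tropomyosin. Calcium binding to troponin C moves troponin I and troponin T, tropomyosin shifts on the actin surface, and myosin heads can then bind. Filament length is set at the pointed end, where tropomodulin caps the filament and leiomodins permit its growth, and nebulin relatives strengthen the filament near the Z-disc.

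The libraries held 5562520 to 8655655 reads assigned to genes. Zfpm2 was at 31.7, 30.9 and 29.4 CPM (reads of the gene for a fixed number of reads in the library, after TMM scaling) in the WT libraries and at 140.1, 222, 262 and 246 CPM in the OE libraries, a log2 fold change of 2.82 ± 0.22 (SE; adjusted p = 0.000205, edgeR), which is in the direction of the labels. OE replicate 1 stood apart: its mean correlation with the other libraries of its group was 0.948, against 0.969 to 0.972 for the other OE libraries and 0.979 to 0.982 for the WT libraries. Y-linked genes summed to 557 CPM in WT replicate 2 and 545 CPM in OE replicate 1 and to under 1 CPM in the other 5 libraries. Xist was at 0.565 CPM in WT replicate 2 and 0.111 CPM in OE replicate 1, and at 819 to 1080 CPM in the others. Each group therefore held both sexes, so its libraries did not all come from the same mouse. OE replicate 1 was the only male OE library, so its sex and its standing apart cannot be separated. In tissue RNA, fewer cardiomyocytes and less of an mRNA per cardiomyocyte cannot be told apart.

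Promoter sequence was read for the genes because FOG2 acts through GATA factors. The RefSeq windows, of 300 bases with 250 before and 50 from each annotated start, covered 9 of the 10 genes in 14 windows. Nebl had the most windows of any member, and so the most chances of a match. A GATA motif, AGATAA, was searched on both strands and occurred in 3 of the 14 windows, 1 of Tnnt2 and 2 of Nebl, and in 11.2% of all 32851 windows. A T-box motif, AGGTGT, occurred in 4 windows of Tnni3, Tnni1 and Nebl, of which the 2 of Tnni1 overlap and share 1 match, and in 13.7% of all windows. The CArG box, the element bound by serum response factor, occurred in 1 window, of Nebl, and in 1.63% of all windows, and the MEF2 box in 0 windows and in 0.557% of all. The windows that hold these matches in Nebl, the member that changed most, and 1 window each of Tnnt2 and Tnni3, the troponin genes with the most reads, are shown on the strand of the gene (build GRCm38.p6), with matches in capitals.
Nebl, chr2:17462807-17463106, minus strand: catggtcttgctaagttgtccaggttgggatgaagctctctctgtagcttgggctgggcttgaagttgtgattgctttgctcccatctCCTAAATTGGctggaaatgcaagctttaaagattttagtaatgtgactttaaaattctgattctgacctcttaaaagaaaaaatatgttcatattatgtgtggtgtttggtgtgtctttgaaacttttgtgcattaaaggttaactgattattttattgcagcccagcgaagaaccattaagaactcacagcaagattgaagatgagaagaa
Nebl, chr2:17526081-17526380, minus strand: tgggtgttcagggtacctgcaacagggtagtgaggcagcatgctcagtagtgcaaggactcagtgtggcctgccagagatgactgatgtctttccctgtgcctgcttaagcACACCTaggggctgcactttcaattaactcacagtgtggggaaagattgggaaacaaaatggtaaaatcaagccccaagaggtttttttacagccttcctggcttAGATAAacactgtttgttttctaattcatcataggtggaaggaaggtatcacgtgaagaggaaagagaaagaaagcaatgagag
Nebl, chr2:17670116-17670415, minus strand: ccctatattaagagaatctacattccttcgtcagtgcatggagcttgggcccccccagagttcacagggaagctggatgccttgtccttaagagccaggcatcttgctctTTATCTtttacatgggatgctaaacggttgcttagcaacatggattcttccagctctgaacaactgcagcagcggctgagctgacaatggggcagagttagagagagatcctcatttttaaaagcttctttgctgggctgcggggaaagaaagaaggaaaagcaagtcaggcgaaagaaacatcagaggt
Tnnt2, chr1:135836084-135836383, plus strand: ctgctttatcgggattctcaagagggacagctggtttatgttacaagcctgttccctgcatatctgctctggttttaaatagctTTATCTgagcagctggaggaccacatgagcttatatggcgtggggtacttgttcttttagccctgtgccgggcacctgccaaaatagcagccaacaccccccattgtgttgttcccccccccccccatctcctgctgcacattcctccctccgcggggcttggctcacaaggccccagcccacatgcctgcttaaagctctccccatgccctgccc
Tnni3, chr7:4522479-4522778, minus strand: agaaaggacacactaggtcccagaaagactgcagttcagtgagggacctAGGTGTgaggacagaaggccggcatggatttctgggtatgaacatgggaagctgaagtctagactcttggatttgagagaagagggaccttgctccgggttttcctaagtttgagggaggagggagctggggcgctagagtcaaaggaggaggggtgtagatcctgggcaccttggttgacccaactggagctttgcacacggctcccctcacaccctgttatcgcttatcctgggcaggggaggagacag
The capitals mark a CArG box 162 bases before the start in the first Nebl window. In the next Nebl window they mark a T-box match 139 bases before and a GATA match 34 bases before the start. A GATA match stands 140 bases before the start in the last Nebl window and 166 bases before it in the Tnnt2 window, and a T-box match stands 201 bases before the start of Tnni3. The Nebl window at chr2:17731085-17731384 held none of the motifs marked in capitals and is not shown. None of the Nebl windows covers 17460932, the start of the form of 28 exons described below. A match is a string of letters and says nothing of binding in these atria.

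Tnnt2, Tnni3 and Tnnc1 were abundant and Tnni1 was low. None of the 4 troponin genes passed the test at an adjusted p of 0.05 (edgeR's quasi-likelihood test, Benjamini-Hochberg adjustment over 13295 genes, as for every adjusted p that follows unless another tool is named). Tnni3 (chromosome 7, 4518305 to 4524229, minus strand of mm10) encodes the adult cardiac troponin I, the subunit that inhibits actomyosin at low calcium. It stood at 3933, 4184 and 4228 CPM in the WT libraries and at 2819, 3488, 3278 and 3469.9 CPM in the OE libraries, so every OE library lay below every WT library. The means were 4115 ± 159 (SD, n = 3) and 3264 ± 312 CPM (SD, n = 4), the log2 fold change was -0.33 ± 0.13 (SE), and the adjusted p was 0.189. With DESeq2 the change of Tnni3 was -0.34 and passed, at an adjusted p of 0.0226, and over 20 alternative settings the adjusted p ran from 0.0226 to 0.689. Tnni3 shares 86 exon bases, 4.17% of its own, with Dnaaf3 on the same strand, a gene with 267 reads over all libraries.

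Tnnc1 (chromosome 14, 31208312 to 31211729, plus strand) encodes the calcium-binding subunit of cardiac and slow muscle. Its levels were 1151, 1307 and 1298 CPM in WT and 1121, 716, 879.9 and 521 CPM in OE, with OE replicate 1 just under the lowest WT library and the other 3 OE libraries well under it. Its log2 fold change was -0.63 ± 0.23 (SE) with a 95% interval of -1.14 to -0.12 and an adjusted p of 0.173. Without OE replicate 1 the change of Tnnc1 was -0.83 ± 0.17 and its adjusted p fell to 0.0160, within a range of 0.0160 to 0.748 over the alternatives.

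Tnnt2 (chromosome 1, 135836354 to 135852260, plus strand) encodes cardiac troponin T, which holds the complex on tropomyosin. Its levels overlapped between groups, at 4275, 5004 and 4111 CPM in WT and 3902, 2789.8, 3249.9 and 4569 CPM in OE. The highest OE library, replicate 4, lay above 2 of the 3 WT libraries. The log2 fold change was -0.30 ± 0.18 (SE; adjusted p = 0.408), with a 95% interval of -0.71 to 0.11.

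Tnni1 (chromosome 1, 135779434 to 135810989, plus strand), the slow skeletal troponin I that the heart uses before birth, was the lowest of the 10 genes. It had 112, 75 and 42 reads in the WT libraries and 90, 18, 17 and 33 in the OE libraries. These are 13.4, 10.6 and 5.17 CPM in WT and 9.996, 2.60, 2.96 and 3.84 CPM in OE, with replicate 1 far above the other OE libraries and inside the WT range. This gave a log2 fold change of -0.97 ± 0.50 (SE; adjusted p = 0.346). Without OE replicate 1 it was -1.61 ± 0.35 with an adjusted p of 0.0198, the lowest over the alternatives, where the highest was 0.650.

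**Figure D1:**
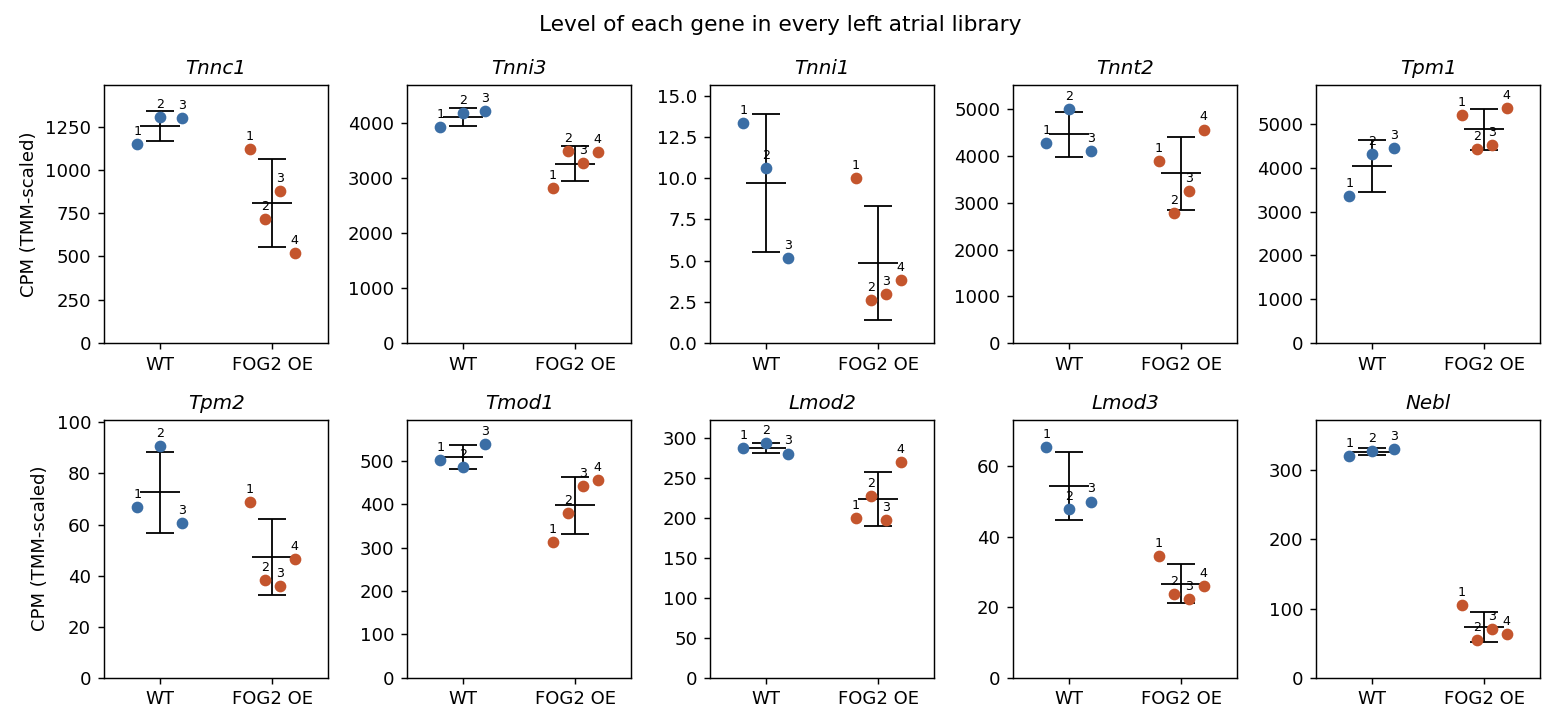
Level of each of the 10 thin filament genes in every library, in CPM on a linear axis, with WT and OE libraries side by side, the group mean as a bar and the SD as the error bar. Nebl lies between 320.9 and 330.2 CPM in the 3 WT libraries and between 54.3 and 105 CPM in the 4 OE libraries, whereas the 2 groups overlap for Tnnt2, Tnni1, Tpm1 and Tpm2.

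The 2 tropomyosin genes had estimates of opposite sign, and neither passed the test. Tpm1 (chromosome 9, 67022590 to 67049406, minus strand), the main tropomyosin gene of the mouse heart, was the only member with a positive estimate. It stood at 3366, 4321 and 4463 CPM in WT and 5208, 4427, 4523 and 5359 CPM in OE, so that 1 OE library fell inside the WT range. The log2 fold change was 0.27 ± 0.15 (SE; adjusted p = 0.370), with a 95% interval of -0.07 to 0.60. Tpm1 has 21 annotated transcripts, muscle and non-muscle, and these cannot be separated in a table of genes.

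Tpm2 (chromosome 4, 43514711 to 43523765, minus strand) encodes beta-tropomyosin, the form common in slow skeletal and embryonic muscle. Its levels were 66.8, 90.7 and 60.6 CPM in WT and 68.6, 38.1, 36.0 and 46.7 CPM in OE. Only OE replicate 1 overlapped the WT libraries. This was a log2 fold change of -0.61 ± 0.24 (SE; adjusted p = 0.205). Without OE replicate 1 it was -0.84 ± 0.16 and passed at an adjusted p of 0.0113. In the 5 libraries with Y-linked genes under 10 CPM it was -0.66 ± 0.13 and passed at an adjusted p of 0.0170. The adjusted p ran from 0.0113 to 0.705 over the alternatives.

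All 4 genes that act on filament ends or along filaments had negative estimates. Of these 4, 2 were called lower, where 3.29% of all tested genes were. Nebl (chromosome 2, 17343909 to 17731464, minus strand) stood at 320.9, 328.5 and 330.2 CPM in the WT libraries and at 105, 54.3, 70.6 and 63.4 CPM in the OE libraries. The WT libraries were nearly equal, and the highest OE library lay far below them. The means were 327 ± 4.95 (SD, n = 3) and 73.3 ± 22.1 CPM (SD, n = 4). The log2 fold change was -2.15 ± 0.20 (SE), with a 95% interval of -2.60 to -1.70 and an adjusted p of 0.000524. Nebl passed under all 20 alternatives, with changes from -2.38 to -1.67 and adjusted p-values of at most 0.00437.

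The gene has 13 annotated transcripts over a span that runs from a long form of 28 exons, Nebl-202, starting at 17460932, to a form of 7 exons, Nebl-201, that starts far upstream at 17731043. The upstream form is known as a LIM-domain form that is also made outside the heart. One count per gene does not tell these forms apart, so what the cardiac and the upstream form each add to the reads is not known.

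Lmod3 (chromosome 6, 97238534 to 97252759, minus strand) stood at 65.6, 47.9 and 50.005 CPM in WT and at 34.7, 23.8, 22.3 and 26.1 CPM in OE, with no overlap. The means were 54.5 ± 9.67 (SD, n = 3) and 26.7 ± 5.52 CPM (SD, n = 4), and the log2 fold change was -1.02 ± 0.17 (SE; adjusted p = 0.0109). WT replicate 1 was the highest library, and without it the change of Lmod3 was -0.87 and missed the threshold at an adjusted p of 0.0582. Over the 20 alternatives it passed in 17, with adjusted p-values from 1.78e-05 to 0.0957.

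Lmod2 (chromosome 6, 24597762 to 24605414, plus strand) encodes the main leiomodin of the heart. Its levels were 288, 293 and 280.3 CPM in WT and 199, 227, 197 and 269 CPM in OE, with OE replicate 4 close under the lowest WT library. Its log2 fold change was -0.36 ± 0.12 (SE) and the adjusted p was 0.144.

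Tmod1 (chromosome 4, 46038935 to 46116032, plus strand) encodes tropomodulin 1, the pointed-end cap of heart muscle. It stood at 502, 487 and 540.3 CPM in WT and at 313, 381, 444 and 457 CPM in OE, again without overlap. The log2 fold change was -0.36 ± 0.14 (SE) and the adjusted p was 0.210. Tmod1 shares 1287 exon bases, 32.6% of its own, with Tstd2 on the opposite strand, a gene with 1726 reads over all libraries. As the sources used here do not state the strand setting of the counting, it is not known how reads from that overlap were assigned.

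Over the 10 genes, all of which passed the filter on low counts, 0 were called higher and 2 lower, where 1.55% of all tested genes were called higher and 3.29% lower (4.84% in either direction). DESeq2, which called 3.47% of genes higher and 5.14% lower, and an unadjusted edgeR p under 0.05 likewise gave 0 members higher. DESeq2 called 3 members lower, Nebl, Lmod3 and Tnni3. An unadjusted p under 0.05 was reached by 7 members, all lower in OE (Nebl, Lmod3, Lmod2, Tnnc1, Tnni3, Tpm2 and Tmod1), where 19.2% of all genes reached it in either direction. The groups did not overlap for 6 members, again all lower in OE, against 10.8% of all genes. The median log2 fold change of the members was -0.49, beside 0.02 over all tested genes.

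OE replicate 1 was the highest OE library for Tnni1, Tnnc1, Tpm2, Nebl and Lmod3 and the lowest for Tnni3 and Tmod1. Without it 5 members were called lower, Tnni1, Tnnc1, Tpm2, Nebl and Lmod3, where 4.99% of the genes then tested were called lower. The 5 libraries with Y-linked genes under 10 CPM leave out that library and WT replicate 2. In them 3 members were called lower, Tpm2, Nebl and Lmod3, where 3.07% of genes were.

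**Figure D2:**
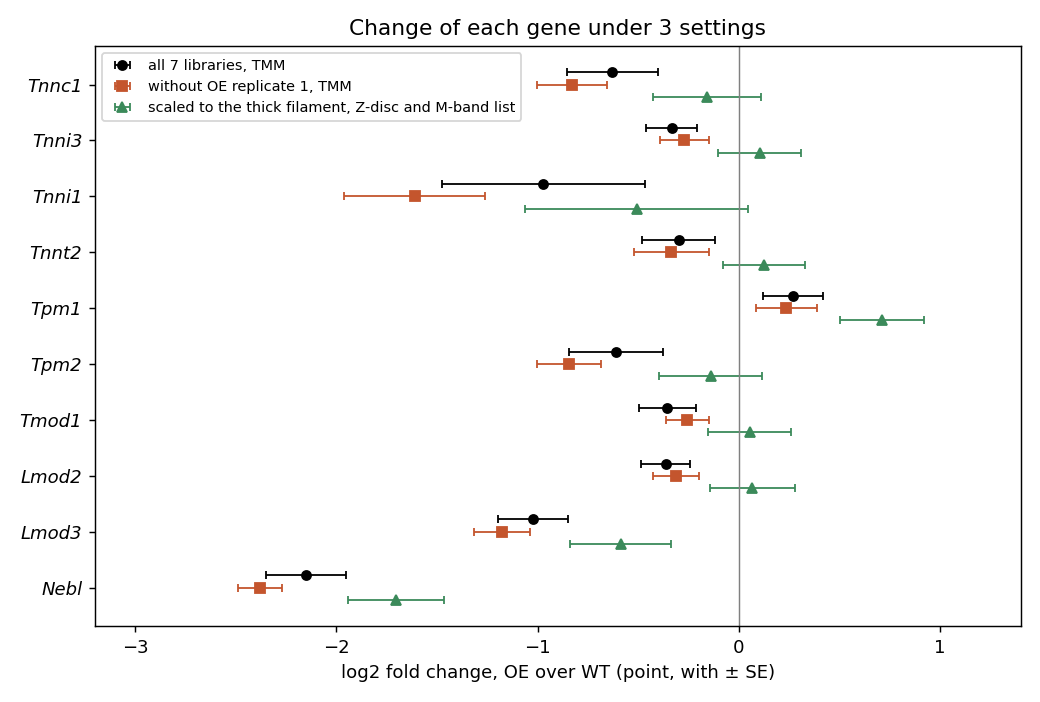
Log2 fold change of each of the 10 genes, OE minus WT, with the SE as the error bar, for all 7 libraries, without OE replicate 1, and after scaling to 16 genes of the thick filament, Z-disc and M-band. Nebl is at -1.70 or lower in all 3, Lmod3 moves from -1.02 with all libraries to -0.59 after that scaling, and Tpm1 moves from 0.27 to 0.71.

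Other cardiomyocyte transcripts also differed between the groups. Of 8 atrial cardiomyocyte markers, 0 were called higher and 3 lower, beside 1.55% and 3.29% of all tested genes. Their median was -0.46, and their summed level was 142968 to 168259 CPM in WT and 89011 to 127437 CPM in OE. Ttn, Myh6 and Actn2 of these markers are also among the genes of the next list. Against the sum of 16 genes of the thick filament, Z-disc and M-band, of which Ttn makes up 62.8%, other calls were made. That sum was 109439 to 131484 CPM in WT and 71805 to 106672 CPM in OE. Scaled to it, Nebl was called lower at -1.70 ± 0.24 and Tpm1 was called higher at 0.71 ± 0.21 (adjusted p = 0.0257, within a range of 0.00648 to 0.718 over the alternatives), and Lmod3 at -0.59 no longer passed (adjusted p = 0.0957). The estimates of Tnnt2, Tnni3, Lmod2 and Tmod1 turned from negative to 0.12, 0.10, 0.07 and 0.05. The same scaling moved the median of all genes to 0.46, with 9.84% called higher and 1.04% lower, and the members' median to -0.04. The members' median minus that of all genes was -0.50, beside -0.51 without it. A change of scaling shifts every gene by nearly the same amount, so this difference could hardly change and is no check.

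The markers of other cells moved as follows, and their part in the changes of the 10 genes was not tested. Their calls stand beside 1.55% of all tested genes called higher and 3.29% called lower. Of 7 fibroblast markers none was called by edgeR, with a median of 0.47 and a summed level of 6607 to 9911 CPM in WT and 9236 to 15544 CPM in OE, highest in OE replicate 1. Of 9 smooth muscle and pericyte markers 3 were called higher, with sums of 974 to 1235 CPM in WT and 1811 to 2309.6 CPM in OE. Without Acta2 the sums were 958 to 1214 and 1130.04 to 1505 CPM, and 2 of 8 markers, Cspg4 and Notch3, were called higher, with a median of 0.94. Most of the sums without Acta2 came from Des, which is also among the 16 genes above. Des was at 617 to 840 CPM in WT and 654 to 943 CPM in OE and was not called. Vascular endothelial markers summed to 1436 to 1627 CPM in WT and 1188 to 1483 CPM in OE, endocardial ones to 1220.3 to 1259 and 956 to 1224 CPM, macrophage ones to 299 to 429.8 and 365 to 537 CPM, and epicardial ones to 309 to 339 and 306 to 479 CPM.

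The atrial list was abundant in every library, but most of its sum was Ttn and Myh6, which are not particular to the atrium. Of its other genes, Myl7, Myl4, Nppa and Sln had means of 8483, 9407, 25004 and 3201 CPM in WT. In OE their means were 2095, 8332, 17566 and 1072 CPM. Myl7 and Sln were called lower, and Myl4 and Nppa were not called. Ryr2 went from 5237 CPM in WT to 2385 CPM in OE and was called lower. Actn2, at 1151 CPM in WT and 1109 CPM in OE, was not called. Ventricular markers summed to 50.005 to 82.8 CPM in WT and 15.6 to 118 CPM in OE. Among them Irx4 was at or near 0 throughout and Myl2, the ventricular light chain, was under 1.5 CPM except for 45.3 CPM in OE replicate 2. Sinus node markers, 1 of them called higher, summed to 30.1 to 40.5 CPM in WT and 36.0 to 61.6 CPM in OE. Skeletal muscle markers, with sums of 1215 to 1846 CPM in WT and 983 to 1263 CPM in OE, were mostly Ckm, which the heart also makes, and the fast fibre genes Myh1, Myh2, Myh4, Mylpf and Pvalb were at most 0.722 CPM in any library.

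Ratios between 2 members within a library do not depend on scaling, and 6 were compared by an exact two-sided permutation test over all 35 splits, whose smallest possible p is 0.0571. Per 100 reads of Tpm1 there were 1.98, 2.10 and 1.36 reads of Tpm2 in WT and 1.32, 0.861, 0.796 and 0.871 in OE. The groups did not overlap, and the log2 ratio differed by -0.92 (exact permutation p = 0.0571, 0.343 after adjustment over the 6 ratios). Beta-tropomyosin reads were a small part of the tropomyosin reads in both groups.

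Lmod3 stood at 22.8, 16.3 and 17.8 reads per 100 of Lmod2 in WT and 17.4, 10.5, 11.3 and 9.68 in OE, with OE replicate 1 inside the WT range. That log2 ratio differed by -0.66 (exact permutation p = 0.114, adjusted 0.343). Reads of Tnni1, the fetal form, numbered 0.340, 0.253 and 0.122 per 100 of Tnni3 in WT and 0.355, 0.0745, 0.0902 and 0.111 in OE, where OE replicate 1 was the highest of all 7 libraries. The log2 difference was -0.77 (exact permutation p = 0.343, adjusted 0.48), and it was -1.25 without that library.

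Lmod2 per 100 reads of Tmod1, the 2 factors with opposed roles at the pointed end, was 57.3, 60.2 and 51.9 in WT and 63.7, 59.6, 44.4 and 58.9 in OE. The groups lay on top of each other, with a log2 difference of -0.01 (exact permutation p = 1). Within the troponin complex, reads of Tnni3 per 100 of Tnnc1 were 342, 320.1 and 326 in WT and 251, 487, 373 and 666 in OE, and reads of Tnnt2 per 100 of Tnnc1 were 371, 383 and 317 in WT and 348, 389.6, 369 and 877 in OE. These ratios were more spread in OE than in WT and differed by 0.34 and 0.36 on the log2 scale (exact permutation p = 0.4 and adjusted p = 0.48 for each). OE replicate 4, with the lowest Tnnc1 level, held the highest value of both.

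**Figure D3:**
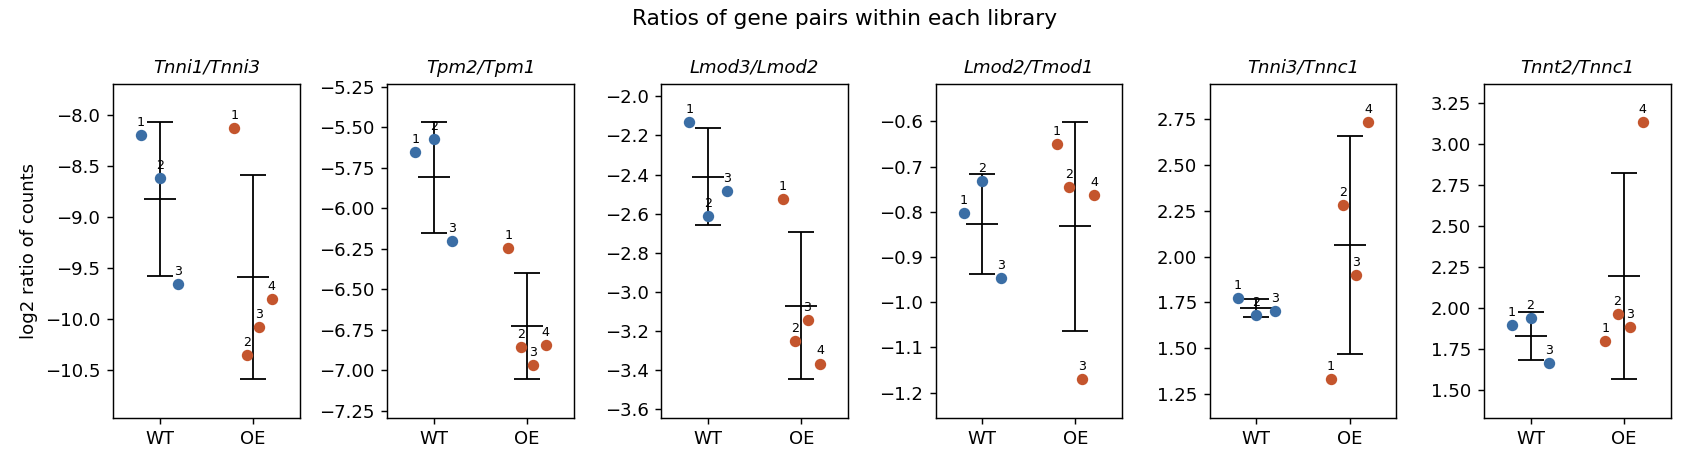
Log2 ratio of read counts for 6 pairs of members in each library, WT and OE side by side, with the group mean as a bar. The groups are apart for Tpm2 over Tpm1, where the difference is -0.92, and overlap for the other 5 pairs.

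Levels of different genes were compared per kilobase of annotated exon. On that scale the WT means ran from 1995 CPM per kb for Tnni3 through 1203 for Tnnc1, 625 for Tpm1, 576 for Tnnt2, 145 for Lmod2 and 129 for Tmod1 to 25.0 for Tpm2, 24.6 for Lmod3, 21.4 for Nebl and 2.70 for Tnni1. Neighbours whose WT libraries overlapped on that scale were Tpm1 (519 to 688) and Tnnt2 (530.3 to 645), and Tpm2 (20.8 to 31.2), Lmod3 (21.6 to 29.6) and Nebl (21.1 to 21.7). The rank order of the means was the same in OE, but Nebl, at 3.56 to 6.89 CPM per kb, then lay below every Lmod3 library (10.05 to 15.6). Per kilobase of the longest coding transcript, Tnnt2 moved from rank 4 to rank 2 and Nebl from rank 9 to rank 7 in WT.

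The other genes of the thin filament were taken as lists by family. Of 46 genes 44 were tested, 2 were called higher (4.55%) and 5 lower (11.4%), and 37 were not called. Over all tested genes 1.55% were called higher and 3.29% lower, and these shares apply to the counts by list below as well. The median log2 fold change of the 44 genes was 0.08. Among the other troponin isoforms 1 of 3 tested genes was called higher. This was Tnnt1, the slow skeletal troponin T, at 15.98, 15.8 and 19.8 CPM in WT and 44.1, 80.6, 74.5 and 91.3 CPM in OE (log2 fold change 2.07 ± 0.25, adjusted p = 0.00230), which passed under all 20 alternatives. Tnnt1 lies 1923 bases from Tnni3 on chromosome 7, and Tnni1 lies 25365 bases from Tnnt2 on chromosome 1. Of these neighbours only Tnnt1 passed the test. Tnni2, a fast skeletal troponin I, was at 10.2 ± 2.92 (SD, n = 3) and 11.2 ± 5.42 CPM (SD, n = 4), and Tnnc2, with 1 read in all, was not tested.

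Neither of the other tropomyosin genes was called by edgeR, and 1 of the 2 had an unadjusted p under 0.05. Tpm3 was at 21.0 ± 8.97 CPM (SD, n = 3) in WT and 37.5 ± 9.37 CPM (SD, n = 4) in OE (adjusted p = 0.181). Tpm4, a tropomyosin of non-muscle cells, was at 111 ± 9.43 CPM in WT and 185 ± 113 CPM in OE (adjusted p = 0.351), with 355 CPM in OE replicate 1 and 119.97 to 139 CPM in the other OE libraries.

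Of 7 other tropomodulin, leiomodin and nebulin family genes 1 was called lower. Tmod4, the skeletal muscle tropomodulin, was at 21.3, 17.4 and 16.9 CPM in WT and 5.11, 9.96, 7.31 and 8.61 CPM in OE (log2 fold change -1.26 ± 0.22, adjusted p = 0.0117). Without WT replicate 1 its adjusted p was 0.0689, and scaled to the 16 genes 0.0557, within a range of 4.70e-05 to 0.0689. Nrap, an actin-binding protein of developing myofibrils and intercalated discs, was at 486 ± 89.4 and 438 ± 53.1 CPM, and Tmod3, a broadly expressed tropomodulin, at 130 ± 6.17 and 145 ± 37.0 CPM.

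Of 3 actins tested 1 was called higher. Acta2, the smooth muscle actin that is also made in the embryonic heart, rose from 15.3, 20.9 and 36.2 CPM in WT to 1035, 681, 761 and 715 CPM in OE, a log2 fold change of 5.05 ± 0.33 (adjusted p = 0.000137). Actc1, the actin of adult cardiac thin filaments, was at 5531 ± 482 CPM in WT and 4639.7 ± 412 CPM in OE (log2 fold change -0.25, adjusted p = 0.341).

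Of 19 genes for capping, assembly and turnover 3 were called lower. Nexn encodes nexilin, an actin-binding protein of the Z-disc and junctional membrane, and was at 204, 194 and 193 CPM in WT and 101, 85.3, 101 and 94.0 CPM in OE (log2 fold change -1.04 ± 0.09, adjusted p = 0.000342). Among the alternatives only scaling to the sum of the 16 genes ended the call, at an adjusted p of 0.0525. Fhod3, a formin that builds cardiac thin filaments, was at 247 ± 9.91 and 156 ± 27.7 CPM (adjusted p = 0.0253), and Cap2, which takes part in actin turnover, at 312 ± 26.4 and 215 ± 22.9 CPM (adjusted p = 0.0303). These 2 calls were less stable, since Fhod3 passed in 13 and Cap2 in 11 of 20 alternatives, and each missed the threshold when any 1 of the 3 WT libraries was left out, at adjusted p-values of 0.0861, 0.105 and 0.0870 for Fhod3 and 0.0643, 0.133 and 0.109 for Cap2. OE libraries decided them too. Without OE replicate 2 the adjusted p was 0.0613 for Fhod3 and 0.0658 for Cap2, without replicate 4 it was 0.0575 for Fhod3, and without replicate 3 it was 0.0691 for Cap2. The most abundant genes of that list, Xirp2 at 669 ± 54.2 and 662 ± 153 CPM and Svil at 558 ± 48.7 and 478 ± 68.7 CPM, were not called.

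Of 10 splicing factors that act on transcripts of sarcomere genes 1 was called lower. Rbm20, a regulator of splicing of titin and other sarcomere transcripts, was at 475, 533 and 417 CPM in WT and 251, 215, 294 and 272 CPM in OE (log2 fold change -0.88 ± 0.13, adjusted p = 0.00622). Scaled to the 16 genes its change was -0.46 with an adjusted p of 0.102. Qk and Mbnl1, the most abundant of the list, were at 574 ± 30.7 and 493 ± 46.9 CPM and at 509 ± 32.0 and 467 ± 21.5 CPM, and neither was called.

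**Figure D4:**
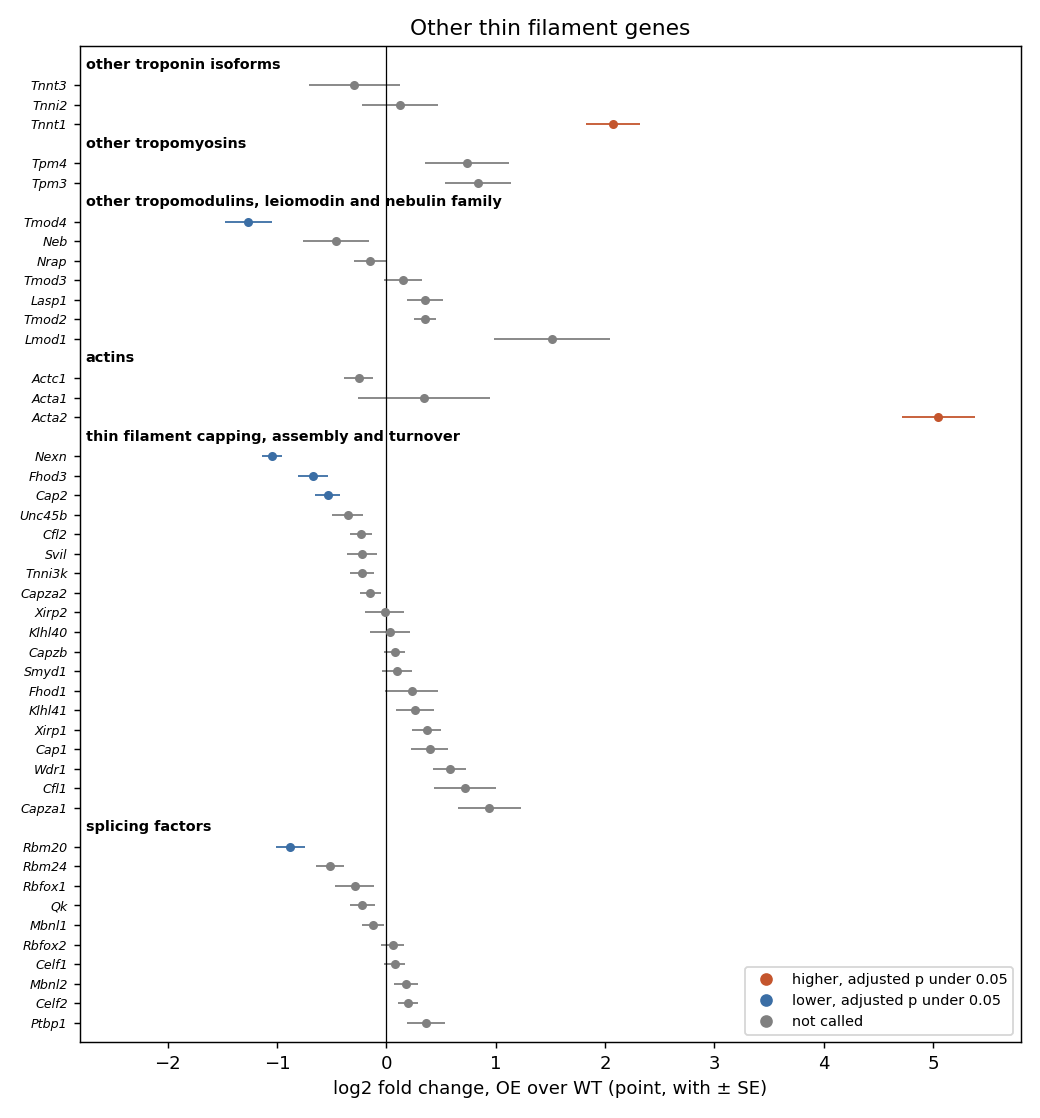
Log2 fold change, OE minus WT, with the SE as the error bar, of the tested genes of the wider thin filament lists, grouped by list and coloured by whether the adjusted p passed 0.05. Acta2 at 5.05 and Tnnt1 at 2.07 are the 2 called higher, and the 5 called lower lie between -1.26 and -0.54.

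The genes whose log2 CPM was most like that of Nebl over the 7 libraries were Serpinb6b (r = 0.996), D830005E20Rik (0.995), Angpt1 (0.994) and Mylk4 (0.994), out of 9552 genes with a mean of at least 10 CPM. All 4 were lower in OE. Serpinb6b went from 124 to 33.1 CPM, and Angpt1, the angiopoietin ligand of the Tie2 receptor, from 689 to 76.5 CPM. The coefficients mostly follow the difference between the 2 groups, which all these genes share, and are given as a description over 7 libraries.

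Within groups, deviations from the group mean were compared among the members over the same 7 libraries. Tnni1 deviated most like Lmod3 (r = 0.85), and Tpm2 most like Tnni1 (0.84), and OE replicate 1 was the highest OE library for all 3. Nebl deviated most like Tnnc1 (0.76) and Tnni3 most like Tmod1 (0.76). The coefficients largest in size were negative, at -0.92 for Tnnc1 with Lmod2 and -0.92 for Tnni3 with Nebl. The values rest in part on OE replicate 1, which all these genes share, and are descriptions with no test.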

How the data were processed

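RNA sequencing of mouse left atria was deposited as 1 table of raw read counts per gene, in whole numbers, with all 7 columns assigned to samples by name (0 columns were unassigned). The submitters' processing notes name STAR, HTSeq 0.6.0, DESeq2 and the build mm10 without roles, and the strand setting is not given in the sources used here. A label speaks of polyA RNA and the protocol of removing ribosomal RNA with Ribozero, so the selection is uncertain. Of all reads in the deposited count table, 27.8% to 33.1% lay in genes, 23.4% to 30.5% had no feature, 37.1% to 43.4% were not unique and 0.101% to 0.254% were ambiguous, and these classes stayed out of the library sizes. The members and gene lists were chosen with earlier results of these data known.

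OE (4 libraries) was compared with WT (3) in edgeR 4.0.16 (R 4.3.3) with TMM scaling, filterByExpr (minimum count 10, minimum total 15), robust quasi-likelihood F tests and Benjamini-Hochberg adjustment over 13295 genes, with a threshold of 0.05. CPM used TMM library sizes. Ratios had 0.5 added to each count and were tested with SciPy 1.17.1 by exact permutation. Likeness used log2 CPM with a prior count of 2. Alternatives were other scalings, filters and tools (DESeq2 1.42.0, limma 3.58.1 voom), a replicate block, a Y-linked covariate and leaving out each library. Of 20 alternatives 18 were planned, and 2 were added after seeing the data. These were the libraries with Y-linked genes under 10 CPM, and scaling to the mean log2 level of the 16 genes. Named genes were all 10 members and, in each wider list, the genes called and the 2 most abundant. For Nebl, the member with the smallest p, the 5 tested genes of the highest Pearson r were taken, of which 1 is not reported here, and for members the closest other member. Positions, transcripts, exon lengths and overlaps come from GENCODE M21 on mm10, which may differ from the annotation used for the counts. Promoter windows come from RefSeq.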

Additional observations from a re-analysis of the deposited data

Results flagged for a closer look

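In 2 of 16 groups of 4 OE libraries tested, 1 library lay apart from the other 3 by a gap, as a share of the whole range, above Dixon's 95% limit. Chance gives this in about 1 in 20 groups. For Tnni1 the share was 0.832, with OE replicate 1 at 9.996 CPM and the others between 2.60 and 3.84 CPM. For the log2 ratio of Tnnt2 to Tnnc1 it was 0.878, with OE replicate 4 at 3.13 and the others between 1.80 and 1.96, and without that library the difference between OE and WT was 0.05.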

How the results depend on the processing

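Under 20 alternatives Nebl stayed lower and past the threshold. With 1 library left out at a time, 1 to 5 members, 181 to 658 of all genes and 2 to 6 genes of the wider lists were called lower, and 75 to 493 of all genes and 2 to 6 of the wider lists higher. Scaled to the sum of 16 sarcomere genes, 1 member was called higher and 1 lower, 1308 of all genes higher and 138 lower, and 12 genes of the wider lists higher and 0 lower. Scaled to the mean log2 level of those genes, 1 member was called higher and 1 lower, 2998 of all genes higher and 165 lower, and 17 of the wider lists higher and 2 lower. Under these 2 scalings the estimates reversed for Tnnt2 (0.12 and 0.15), Tnni3 (0.10 and 0.13), Lmod2 (0.067 and 0.088) and Tmod1 (0.054 and 0.085), none of them called. Library totals alone gave 444 of all genes higher and 294 lower, with 4 genes of the wider lists higher, and moved the median of all genes to 0.15. DESeq2 gave 460 higher and 681 lower, with 4 of the wider lists higher. The difference in the Lmod2 to Tmod1 ratio, -0.0052 with all libraries, reversed to 0.00652 without WT replicate 1, 0.0428 without WT replicate 2 and 0.107 without OE replicate 3, in a range from -0.0656 to 0.107 with 1 library left out. Deviations of same-numbered libraries had r = 0.079, 0.014 and 0.072, and those of other WT and OE pairs ran from -0.101 to 0.152. For WT replicates 1 and 3 the same-numbered OE library was the highest, so these values cannot decide whether the numbers pair the libraries. The replicate numbers follow the alphabetical order of the column names, which share no number between WT and OE. With the replicate block 129 of all genes were called higher and 253 lower, the 2 calls among members held, and Cap2 missed the threshold (adjusted p = 0.0612), the third of 3 results out of 43 that changed. The cause of these differences was not tested. Tnni1 had the fewest reads of the members, 17 to 112 per library.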
